A study of Homo sapiens with 35 samples.

Results

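The comparison followed what the histone deacetylase inhibitor valproic acid (VPA) changed in neuroblastoma cells that also received all-trans retinoic acid (ATRA). BE(2)-C cells given 5 uM ATRA together with 1 mM VPA for 24 h were set against BE(2)-C cells given 5 uM ATRA alone for 24 h. BE(2)-C is an established human neuroblastoma cell line that carries extra copies of the MYCN oncogene. Both groups shared this 1 line, its serum-containing medium, the ATRA dose and the time, so that by the labels VPA was the difference between them. The arrays were chosen by their titles, 3 with ATRA + VPA and 3 with ATRA, which makes 6 of the 35 arrays of the series, and 11940 genes were tested. The series was made to derive an expression signature of neuroblastoma differentiation for screening. It covers vehicle (DMSO), ATRA, VPA and the combination at 6, 24 and 72 h. The labels call the arrays of a group triplicates and do not name separate cultures, so p-values measure the spread between these samples, which may be technical.

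Retinoic acid binds nuclear receptors that sit with their RXR partners on target genes, and on binding they exchange corepressor complexes, which contain histone deacetylases, for coactivators that acetylate histones. Neuroblastoma arises from the sympathetic lineage of the neural crest, and retinoids bring many of its cell lines to slow their growth and extend neurites. VPA is a short branched fatty acid used against epilepsy that blocks class I and IIa histone deacetylases and raises histone acetylation. Both agents act at chromatin. Retinoid targets, cell cycle genes, neuronal genes and chromatin genes are the groups described here.

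Values are intensities of the hybridised arrays on a linear scale, and changes are log2 of intensity plus 1, each gene taken at its brightest probe set. Array medians lay between 54.7 and 57.0 with ATRA + VPA and between 53.9 and 55.0 with ATRA, and the lower quartile of any array between 20.8 and 23.6, near which a level cannot be told from background. The log2 ratio of 3′ to 5′ control probes, a sign of RNA and labelling quality, was 0.97 ± 0.33 with ATRA + VPA and 0.89 ± 0.36 with ATRA (SD, n = 3 each), and the ranges overlapped. Replicate 1 of DMSO at 24 h stood apart, with a median of 43.6, and enters the values below through the pooled spread and through each comparison with DMSO. Of 13 noradrenergic neuroblastoma markers, 11 were measured, and all 11 lay above the lower quartile in both groups. HAND2 alone of them was near it, at 32.8 with ATRA + VPA and 37.3 with ATRA. The 11 markers summed to between 23659.5 and 25797 with ATRA + VPA and between 27029 and 28156 with ATRA, and ISL1, CHGA and CHGB were lower by the test. MYCN had intensities of 5291, 5992 and 6247 with ATRA + VPA, against 6266, 6166 and 6281 with ATRA, and these groups overlapped (log2 change -0.10 ± 0.07, SE, limma adjusted p = 0.49). Of markers of other cell types, S100B and GFAP (glia) had means of 24.2 and 23.9 with ATRA + VPA and 24.3 and 23.6 with ATRA, while PTPRC (blood cells) had 17.4 with ATRA + VPA and 17.6 with ATRA. The 5 glial markers measured summed to between 115 and 123 with ATRA + VPA and between 109.8 and 126 with ATRA, the 6 epithelial markers to between 412 and 455 and between 481 and 667, and the 4 blood markers to between 102 and 106 and between 92.3 and 98.

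Promoters of 6 genes are shown because these genes had some of the largest changes: the first 2 rises and the first 2 falls with an entry in the RefSeq promoter table, and HMGCS1 and INSIG1, the sterol genes among the 12 largest falls, which were added after their values were seen. Each runs 5′ to 3′ on the strand of its gene, from 250 bases before to 50 bases after the start (GRCh38.p14). Capitals mark GC boxes (GGGCGG, either strand), the site of SP family factors, which recruit histone deacetylases to promoters, and in INSIG1 also an E-box (CACGTG).
SLITRK5, chr13:87671121-87671420, plus strand: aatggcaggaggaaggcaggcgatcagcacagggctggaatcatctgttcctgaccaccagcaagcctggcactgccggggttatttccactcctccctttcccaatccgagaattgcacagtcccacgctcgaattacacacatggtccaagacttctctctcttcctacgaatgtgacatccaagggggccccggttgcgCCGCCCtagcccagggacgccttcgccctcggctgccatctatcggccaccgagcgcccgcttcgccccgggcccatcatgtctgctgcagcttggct
EPB41L2, chr6:131063196-131063495, minus strand: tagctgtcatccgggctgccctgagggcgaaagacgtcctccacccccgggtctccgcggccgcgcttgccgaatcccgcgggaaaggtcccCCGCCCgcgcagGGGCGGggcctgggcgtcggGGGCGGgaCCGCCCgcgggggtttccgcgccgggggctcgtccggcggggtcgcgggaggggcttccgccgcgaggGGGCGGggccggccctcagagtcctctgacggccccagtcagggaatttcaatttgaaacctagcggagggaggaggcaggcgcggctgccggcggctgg
PRSS12, chr4:118352954-118353253, minus strand: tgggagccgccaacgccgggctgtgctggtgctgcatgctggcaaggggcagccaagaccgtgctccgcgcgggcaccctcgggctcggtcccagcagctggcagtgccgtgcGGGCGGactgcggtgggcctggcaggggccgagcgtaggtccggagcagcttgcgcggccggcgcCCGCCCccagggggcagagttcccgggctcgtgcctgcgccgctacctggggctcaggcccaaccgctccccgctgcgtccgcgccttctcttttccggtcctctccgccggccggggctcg
PPP1R13B, chr14:103847526-103847825, minus strand: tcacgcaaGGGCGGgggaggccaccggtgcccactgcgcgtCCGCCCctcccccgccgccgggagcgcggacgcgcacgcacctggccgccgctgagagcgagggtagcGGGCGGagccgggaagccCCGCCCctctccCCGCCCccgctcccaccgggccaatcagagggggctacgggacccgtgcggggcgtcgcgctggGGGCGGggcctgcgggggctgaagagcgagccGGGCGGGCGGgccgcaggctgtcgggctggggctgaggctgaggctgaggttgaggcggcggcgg
HMGCS1, chr5:43313363-43313662, minus strand: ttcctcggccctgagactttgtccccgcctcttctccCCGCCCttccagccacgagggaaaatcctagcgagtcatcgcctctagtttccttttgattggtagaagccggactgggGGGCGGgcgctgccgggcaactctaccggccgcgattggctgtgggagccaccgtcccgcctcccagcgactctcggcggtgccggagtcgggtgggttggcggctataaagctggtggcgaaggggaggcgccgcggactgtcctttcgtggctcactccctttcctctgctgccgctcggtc
INSIG1, chr7:155297628-155297927, plus strand: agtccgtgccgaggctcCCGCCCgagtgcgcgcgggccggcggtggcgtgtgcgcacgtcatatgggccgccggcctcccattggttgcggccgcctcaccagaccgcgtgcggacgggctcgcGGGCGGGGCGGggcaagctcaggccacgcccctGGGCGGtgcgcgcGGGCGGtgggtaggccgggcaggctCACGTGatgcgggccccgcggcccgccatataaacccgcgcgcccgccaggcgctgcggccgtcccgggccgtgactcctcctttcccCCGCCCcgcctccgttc
SLITRK5 held 1 GC box, EPB41L2 5, PRSS12 2, PPP1R13B 8, HMGCS1 2 and INSIG1 6, counting overlapping matches. None of these 6 windows held TGACGTCA (the cAMP response element) or AGGTCA (the nuclear receptor half-site) on either strand, which stood in 3.11% and 10.55% of the promoters of genes tested. A GC box stood in 69.0% of 468 promoters of genes higher with the combination and in 71.4% of 458 of genes lower with it, against 63.1% of 9593 promoters of genes tested. An E-box stood in 6.62% of the promoters of higher genes and in 12.9% of those of lower genes, against 9.3% of those of genes tested. These matches describe letters in a window and nothing more.

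Adding VPA moved the expression of 1133 genes, which is 9.49% of those tested at an adjusted p under 0.05. Of these, 580 rose (4.86%) and 553 fell (4.63%). The median log2 change over all genes was -0.01, and the median size of a called change was 0.47, so that most calls were shifts well under 2-fold. At least 2-fold differences numbered 56 upward and 14 downward, and a single gene, CALCB, exceeded 4-fold. For 1104 of the called genes the arrays of both groups did not overlap, and for 29 they did. Of all 11940 genes, 1398 had every combination array above and 1721 every combination array below the ATRA arrays. The call and the overlap read the same values, so that this split is not separate support. In 134 called genes the brighter group averaged under 64, where a fold depends on the pseudocount. The count of 1133 fell to 718 without ATRA replicate 3 and was 737 in a fit of the 6 arrays alone.

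The 12 largest rises and the 12 largest falls given next were taken from called genes whose arrays do not overlap between the groups, so that separation is part of their choice and not a result. The largest rise was that of a neuropeptide gene. CALCB, which encodes the beta form of calcitonin gene-related peptide, a vasodilator made by sensory neurons, had intensities of 639.6, 559 and 532 with ATRA + VPA, against 125, 113 and 112 with ATRA. This was a 4.89-fold difference (log2 change 2.29 ± 0.11, SE, adjusted p = 5.1e-15). SLITRK5, a transmembrane protein that organises synapses, had 153, 134 and 140.2 with ATRA + VPA, against 39.1, 38.8 and 31.5 with ATRA (log2 change 1.94 ± 0.13, adjusted p = 1.4e-11, and 1.35 with a pseudocount of 32). EPB41L2, a protein of the membrane skeleton, had 197, 169 and 140.1, against 42.8, 49.7 and 42 (1.88 ± 0.20, adjusted p = 9.2e-08, and 1.26 averaged over its probe sets). Both genes were dim with ATRA alone. IFI30, a thiol reductase of lysosomes, had 255, 331 and 302 with ATRA + VPA, against 75.6, 96.2 and 81.4 with ATRA (3.47-fold, adjusted p = 1e-11). COL5A1, a chain of fibrillar collagen V, had 438, 346 and 359, against 111, 117 and 106 (3.38-fold, adjusted p = 1.1e-10).

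PTGIR, the receptor for prostacyclin, had 319, 349 and 487 with ATRA + VPA, against 132, 129.5 and 91.5 with ATRA (3.24-fold, log2 change 1.70 ± 0.20, adjusted p = 7.5e-07). Replicate 3 was the highest of the combination arrays and the lowest of the ATRA arrays. TMEM45A, a membrane protein, had 175, 137 and 150.5, against 46, 47 and 46.8 (3.24-fold). BLVRB, which reduces biliverdin and flavins, had 271, 354 and 317, against 98.5, 97.6 and 106 (3.08-fold). TMSB15A, a thymosin that binds actin monomers, had 682, 609 and 575, against 189, 229 and 190.3 (3.06-fold). The other 3 of the 12 largest rises were MFAP2, a glycoprotein of microfibrils, TNNT1, the slow muscle troponin T, and MORC4, a nuclear ATPase. Their log2 changes were 1.55 ± 0.15, 1.52 ± 0.18 and 1.38 ± 0.14. All 12 rose in limma with adjusted p-values between 5.1e-15 and 7.5e-07.

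The largest fall was that of LGR5, a receptor for R-spondins that marks Wnt-responsive cells, with 130.0, 116 and 159 in ATRA + VPA cells, against 450.4, 469 and 499.9 in ATRA cells (3.51-fold lower, log2 change -1.81 ± 0.16, SE, adjusted p = 3.6e-09). GAL, the neuropeptide galanin, had 405, 474 and 499 with ATRA + VPA, against 1481, 1420.5 and 1507 with ATRA (3.21-fold lower, adjusted p = 5.1e-15). Its arrays were tight within both groups and lay far apart between them. TOX, a nuclear HMG-box protein, had 101, 77.3 and 109.8, against 249.9, 276 and 305 (log2 change -1.53 ± 0.12, and -0.93 averaged over its probe sets). PRSS12, the synaptic protease neurotrypsin, had 161, 233 and 272, against 597, 503 and 743 (2.79-fold lower, adjusted p = 1.9e-08). SLC18A1, the vesicular monoamine transporter of chromaffin cells, had 185, 136 and 172, against 459, 439 and 465 (2.78-fold lower, adjusted p = 1.4e-07).

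PPP1R13B, the p53-binding protein ASPP1, had 159, 144 and 136 with ATRA + VPA, against 319, 406 and 331 with ATRA (2.39-fold lower, adjusted p = 8.9e-08). RND3, a small GTP-binding protein that counters actin stress fibres, had 361, 398 and 449, against 929.7, 946 and 982 (2.37-fold lower, adjusted p = 1e-09). PTPRH, a receptor tyrosine phosphatase, had 242, 234 and 247, against 635, 477 and 515 (2.23-fold lower, adjusted p = 0.00011). MAFF, a small Maf transcription factor, had 482, 331 and 306, against 718, 872 and 681 (2.06-fold lower, adjusted p = 5.6e-05). Replicate 1 was the highest combination array of MAFF. PRUNE2, a phosphoesterase-like protein with a BCH domain, had 399.5, 371 and 409, against 924, 932 and 961 (2.38-fold lower, adjusted p = 3.5e-12). The other 2 of the 12 largest falls, HMGCS1 and INSIG1, belong to cholesterol metabolism and are given next.

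**Figure D1:**
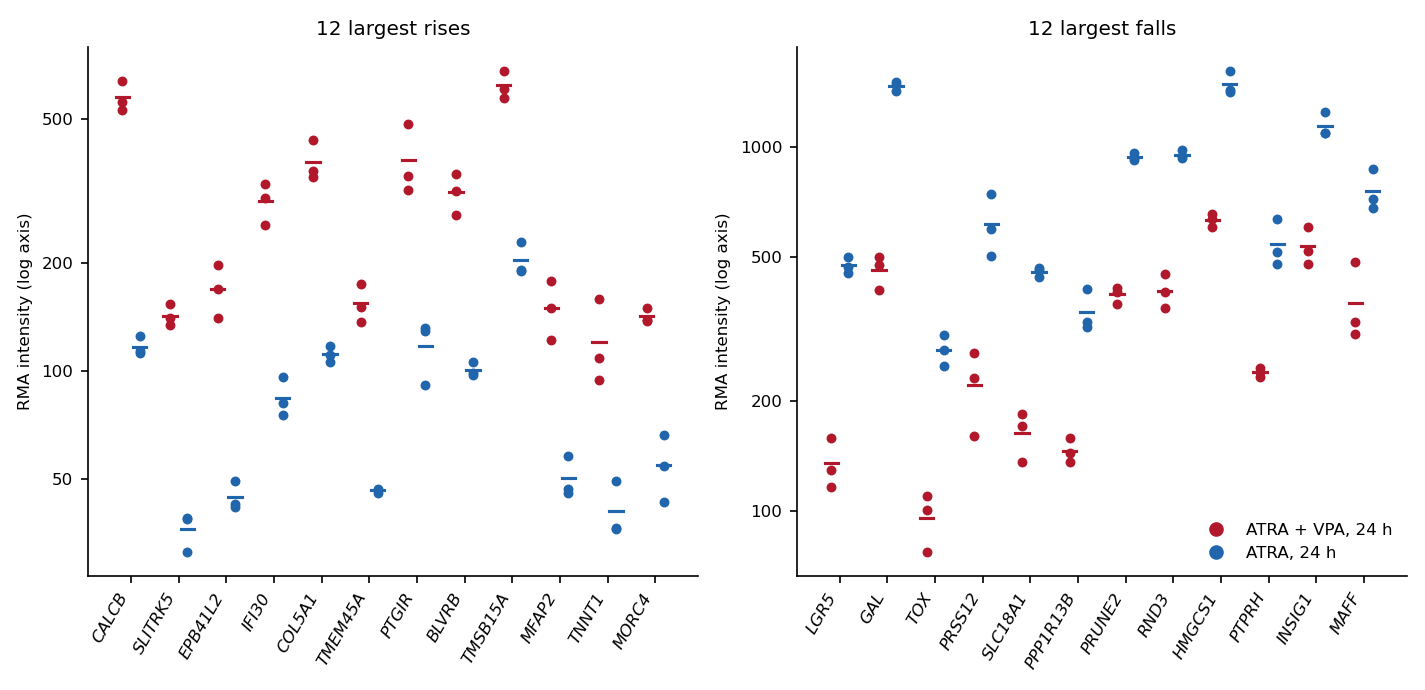
Intensity on a log axis in each of the 3 ATRA + VPA arrays (red) and each of the 3 ATRA arrays (blue) at 24 h for the 12 largest rises (left) and the 12 largest falls (right), with a bar at each group mean. The genes were chosen among those without overlap between the groups, and CALCB shows the widest gap, 532 to 639.6 against 112 to 125.

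Sterol and fatty acid synthesis genes had the largest share of calls among the lists, all of them falls. Of 24 measured members, 17 fell, 0 rose and 7 did not pass, against 4.63% of all genes that fell. The median log2 change of the list was -0.64, against -0.01 for all genes. HMGCS1, which makes the HMG-CoA from which cholesterol is built, had 656, 603 and 634 with ATRA + VPA, against 1412, 1616 and 1435 with ATRA (2.35-fold lower, log2 change -1.23 ± 0.10, adjusted p = 1.3e-09). INSIG1, the sterol sensor that holds the SREBP factors in the endoplasmic reticulum and is itself their target, had 604, 518 and 477, against 1092, 1244 and 1095 (2.15-fold lower, adjusted p = 5.4e-09). IDI1, the isomerase of isoprene units, had 1337, 1192 and 1235, against 2239.5, 2469 and 2342 (1.87-fold lower, adjusted p = 7.2e-09). HMGCS1 and INSIG1 are among the genes chosen for arrays that do not overlap, and the groups of IDI1 did not overlap either.

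The falls lay on both sides of squalene in the cholesterol pathway. Before squalene they included the mevalonate enzymes MVD (log2 change -0.87, or -0.56 with a pseudocount of 32) and MVK (-0.38, adjusted p = 0.0479). From squalene on they included SQLE (-0.84), LSS (-0.67), CYP51A1 (-0.66), MSMO1 (-0.77), NSDHL (-0.64) and DHCR7 (-0.63). ACAT2, which joins acetyl units ahead of the pathway, fell as well (-0.81). Among fatty acid genes, the synthase FASN (-0.75, adjusted p = 0.00097) and the desaturases FADS2 (-0.66) and SCD (-0.53) fell. SREBF2, the transcription factor that drives sterol genes, also fell (-0.42, adjusted p = 0.0098), whereas SREBF1, its relative for fatty acid genes, had -0.15 (adjusted p = 0.69). ACLY, which supplies acetyl-CoA, passed by a narrow margin (-0.25, adjusted p = 0.0497), and like MVK it lost its call whichever 1 of the 6 arrays was left out. EBP, SC5D, FDPS, ELOVL6, FADS1, ACACA and SREBF1 did not pass. FASN was not called averaged over its probe sets (-0.32), and SCD had -0.80 so averaged. ATRA replicate 3 and ATRA + VPA replicate 1 were each needed for the calls of SREBF2, DHCR7 and NSDHL, ATRA replicate 1 for the last 2 and ATRA replicate 2 for NSDHL. Without 1 of the 6 arrays 12 to 16 members were called lower, without DMSO 24 h replicate 1 19, and 0 rose in any alternative run.

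Cell division genes moved the other way at this time. Of 46 measured genes of G2 and mitosis, 15 rose, 0 fell and 31 did not pass, against 4.86% of all genes that rose, and the list median was 0.24. These rises are relative to ATRA alone. Against DMSO at 24 h, 35 fell and 0 rose with ATRA (median -0.39), where 720 of 11940 genes fell. With ATRA + VPA against DMSO, 11 fell and 1 rose (median -0.11), where 930 of 11940 genes fell. CENPA, the histone H3 variant of centromeres, had 1749, 1854 and 1831 with ATRA + VPA, against 1175, 1024 and 1177 with ATRA (1.61-fold higher, log2 change 0.69 ± 0.08, adjusted p = 7.1e-07). NEK2, a centrosome kinase, had 998, 1033 and 997, against 625, 617 and 699.7 (1.56-fold higher, adjusted p = 3.2e-05). TOP2A, the topoisomerase that untangles sister chromatids, had 3384, 3109 and 2823, against 2229.6, 2210.5 and 2271 (1.38-fold higher, adjusted p = 0.00065). These arrays did not overlap between the groups. The motor CENPE (0.53), the kinases CDK1 (0.39) and AURKA (0.43, or 0.24 averaged over its probe sets), the securin PTTG1 (0.42) and HMMR (0.46) rose as well. MKI67, the Ki-67 protein of cycling cells, had 1229, 1132 and 984, against 819.5, 912 and 858 (log2 change 0.36 ± 0.09, adjusted p = 0.0072), a call lost in the 6 arrays alone, averaged over its 4 probe sets and without ATRA + VPA replicate 1. AURKA lost its call in the 6 arrays alone and without the same array, CENPE in the 6 arrays alone, and CDK1 averaged over its 3 probe sets. Over all alternatives the number of members called ran from 2 to 28. It was 2 in the 6 arrays alone with the replicate number as a block, 8 in the 6 arrays alone, 10 without ATRA + VPA replicate 1, 26 after a second quantile normalization, 28 with array weights and 21 without DMSO 24 h replicate 1. In the same order, 247, 397, 422, 736, 1151 and 694 of all 11940 genes rose. In these runs 0 members of the list fell. In such bulk arrays, fewer cells of a type or phase and less RNA per cell cannot be told apart.

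Genes of DNA replication gave no larger share of calls than genes at large. Of 46 measured members, 2 rose and 1 fell, against 4.86% and 4.63% of all genes, with a median of 0.05. PRIM1, the primase subunit, rose 1.33-fold. UNG, which removes uracil from DNA, was 1.3-fold lower and was not called in the 6 arrays alone. Among 26 CDK inhibitors and growth arrest genes 1 rose (CDKN3) and 1 fell (GADD45A, -0.30, lost without 4 of the 6 arrays). CDKN3, a phosphatase of cyclin-dependent kinases whose expression follows mitosis, rose by 0.51 ± 0.08 on the log2 scale (adjusted p = 7.2e-05). CDKN1A, the inhibitor p21 that deacetylase inhibitors are known to raise, had 285, 307 and 315 with ATRA + VPA, against 409.9, 536 and 483 with ATRA (log2 change -0.65 ± 0.22, adjusted p = 0.062). Its 3 combination arrays lay below the 3 ATRA arrays, without passing the threshold. Of 38 MYC target and ribosome biogenesis genes, 7 fell and 0 rose (median -0.16). RRS1, a factor of ribosome assembly, had 1774, 1816 and 1935, against 2405, 2329 and 2416 (1.29-fold lower, adjusted p = 0.0017), with no overlap. The assembly factors PES1 (-0.46), PPAN (-0.44) and NOP2 (-0.37), the pseudouridine synthase DKC1 (-0.29), the MAX partner MNT (-0.38) and ODC1 (-0.40), which starts polyamine synthesis, were the other falls. Each of these 6 lost its call without at least 1 of the 6 arrays, ODC1 without ATRA + VPA replicate 1, PES1 without ATRA replicate 1 or ATRA + VPA replicate 2, and the other 4 without, among others, ATRA + VPA replicate 2 and without ATRA + VPA replicate 3. The 7 falls became 2 without ATRA + VPA replicate 2, 3 in the 6 arrays alone, 4 without ATRA replicate 2 or ATRA + VPA replicate 3 and 13 with array weights. In the same order, 383, 340, 480, 457 and 1362 of all 11940 genes fell.

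**Figure D2:**
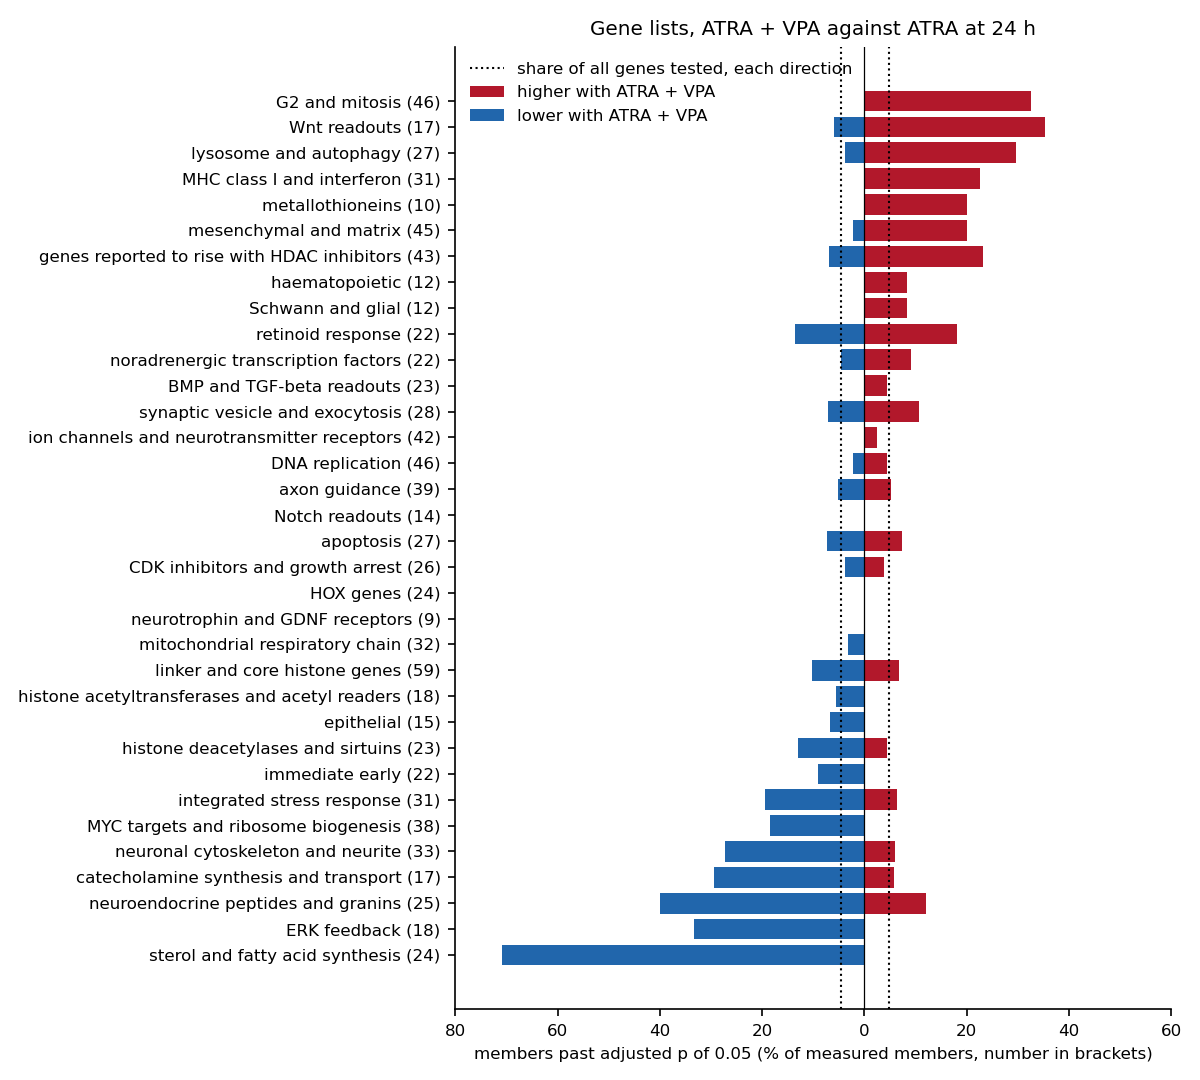
Share of the measured members of each gene list that passed an adjusted p of 0.05 (number of members in brackets), drawn to the right for genes higher and to the left for genes lower with ATRA + VPA than with ATRA at 24 h. Dotted lines give the share of all 11940 genes, 4.86% higher and 4.63% lower; sterol and fatty acid synthesis (17 of 24 lower) and G2 and mitosis (15 of 46 higher) lie far outside them.

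Retinoid target genes did not move as 1 block. Of 22 measured members, 4 rose, 3 fell and 15 did not pass, with a median of 0.05. Of all genes, 4.86% rose and 4.63% fell. HTR2B, a serotonin receptor that averaged 1180.1 with ATRA alone and 49.8 with DMSO, had 2071, 2700.1 and 2942 with ATRA + VPA, against 1232, 1016 and 1292 with ATRA (2.17-fold higher, log2 change 1.11 ± 0.14, adjusted p = 9.5e-07). CYP26A1, the enzyme that oxidises retinoic acid, had 363, 402 and 332, against 166, 230.0 and 208 (1.82-fold higher, adjusted p = 0.00092). Its relative CYP26B1 went the opposite way, with 144, 119.9 and 167 in ATRA + VPA cells, against 206, 258 and 292 in ATRA cells (1.74-fold lower, adjusted p = 0.00015). Neither pair of groups overlapped. RARB, the retinoic acid receptor beta and a classic retinoid target, had 30.4, 32.1 and 28.5, against 19.1, 19.1 and 16.3 (log2 change 0.71 ± 0.10, adjusted p = 1.5e-05). All of these values lie near the lower quartile of the arrays, and averaged over the 5 probe sets the change was 0.13 (adjusted p = 0.22), and with a pseudocount of 32 it was 0.31. PRKCH, a protein kinase C, had 1330.3, 1400.2 and 1330.4, against 911, 877 and 1084 (log2 change 0.50 ± 0.13, adjusted p = 0.013), a call lost without ATRA replicate 1, without ATRA replicate 2 or without ATRA + VPA replicate 2.

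CRABP2, which ferries retinoic acid to the nucleus, had 3757, 4093 and 4492 with ATRA + VPA, against 5083, 4249 and 4426 with ATRA, and the groups overlapped (log2 change -0.16 ± 0.17, adjusted p = 0.69). RET, through which GDNF ligands signal, had 2300.0, 2230.0 and 2546, against 3047, 2851 and 3008 (-0.33 ± 0.15, adjusted p = 0.17). DHRS3, which turns retinal back to retinol, had 72.2, 115 and 102, against 76.4, 68.4 and 50.6 (0.55 ± 0.19, adjusted p = 0.06). None of these 3 passed. ALDH1A3, a retinal dehydrogenase (-0.45, adjusted p = 0.043, or -0.29 averaged over its probe sets), and the partner receptor RXRB (-0.38, adjusted p = 0.042, or -0.18 and not called so averaged) fell. ALDH1A3 lost its call whichever 1 of the 6 arrays was left out, and RXRB without 5 of them singly. No HOX gene passed among 24 measured (limma, list median -0.02), and none of 9 neurotrophin and GDNF receptors, against 9.49% of all genes. Under the alternatives 0 to 2 HOX genes were called higher and 0 to 1 lower, and 0 to 1 of the receptors in each direction. Before adjustment 3 of the 24 HOX genes and 2 of the 9 receptors had p under 0.05, as had 2519 of all 11940 genes.

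Neuroendocrine peptide and granin genes gave more falls than rises. Of 25 measured, 10 fell, 3 rose and 12 did not pass, with a median of -0.13. Of all genes, 4.63% fell and 4.86% rose. GAL led the falls and CALCB the rises. CRH, the corticotropin-releasing hormone, had 4426, 4553 and 4209.7 with ATRA + VPA, against 7325, 7586 and 7426 with ATRA (1.69-fold lower, log2 change -0.76 ± 0.06, adjusted p = 5.8e-10). CHGB, a granin of secretory granules, had 786, 831 and 881, against 1309.9, 1292 and 1236 (1.54-fold lower, adjusted p = 2.2e-05). No arrays overlapped for either. The peptide precursors VGF (-0.56) and VIP (-0.46), the granins SCG2 (-0.48), SCG3 (-0.29) and CHGA (-0.31), the chaperone SCG5 (-0.49) and the calcium sensor SCGN (-0.47) fell too. ADM, the vasodilator adrenomedullin (0.58), and PAM, which amidates peptides (0.34), rose. CALCA, the alpha counterpart of CALCB, had a log2 change of 0.14 (adjusted p = 0.45). SCG5, CHGA, ADM and PAM each lost their calls without 3 or 4 of the 6 arrays, and ADM with a pseudocount of 32 (0.29). VIP, VGF, SCG2, SCG3 and SCGN kept theirs whichever 1 of the 6 arrays was left out. SCG3 was not called in the 6 arrays alone, and none of the 5 in the 6 arrays with the replicate number as a block. With that block 3 members in all were called lower, against 147 of all 11940 genes.

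Of 33 neuronal cytoskeleton and neurite genes, 9 fell and 2 rose (median -0.18), against 4.63% of all genes that fell and 4.86% that rose. With array weights 15 fell, in a run where 1362 of all 11940 genes fell. TUBB3, the neuronal beta tubulin, had 4344, 5158 and 5563 with ATRA + VPA, against 7305, 6666 and 7532 with ATRA (1.43-fold lower, adjusted p = 0.0009). DCLK1, a doublecortin-like kinase, had 145, 142 and 146, against 219, 215 and 204 (1.47-fold lower, adjusted p = 2.4e-05). INA, the internexin of neurofilaments, had 1486, 1525 and 1419, against 2046, 2165 and 2046 (1.41-fold lower, adjusted p = 5.1e-06). In all 3 genes the groups did not overlap. The microtubule proteins DCX (-0.43), TUBB2B (-0.44) and MAP1B (-0.21), the growth cone protein DPYSL3 (-0.43, or -0.66 averaged over its probe sets) and the RNA-binding protein ELAVL4 (-0.39) fell too. DCX lost its call without ATRA replicate 2 or ATRA + VPA replicate 1, and MAP1B without 5 of the 6 arrays. NEFM, the medium neurofilament, passed at adjusted p = 0.0498 (-0.18 ± 0.06), and no fit with 1 of the 6 arrays left out kept the call. GAP43, a growth cone protein, went up (0.27 ± 0.06, adjusted p = 0.0026), as did the kinesin KIF5C (0.44); GAP43 was not called averaged over its probe sets or in the 6 arrays alone, nor KIF5C without replicate 1 of either group.

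Genes of catecholamine synthesis and transport gave 5 falls and 1 rise among 17 (median -0.24), against 4.63% and 4.86% of all genes. The falls became 2 without ATRA replicate 1 (median -0.11), and 3 without ATRA replicate 3, without ATRA + VPA replicate 1, without ATRA + VPA replicate 3, in the 6 arrays alone or after a second quantile normalization. SLC18A1, described above, had the largest fall. PNMT, which makes adrenaline, had 49.2, 41.5 and 36.5 with ATRA + VPA, against 57, 81.9 and 74.9 with ATRA (log2 change -0.73 ± 0.15, adjusted p = 0.0011, and -0.47 with a pseudocount of 32). SLC6A2, the noradrenaline transporter, had 2526, 2527 and 2544, against 3567, 3261 and 3136 (1.31-fold lower, adjusted p = 0.012), which did not pass without ATRA replicate 1. CYB561, a cytochrome of secretory granules (-0.27, adjusted p = 0.0467), lost its call whichever 1 of the 6 arrays was left out, and PTS of biopterin synthesis (-0.25, adjusted p = 0.035) without replicate 1 or 3 of either group. MAOA, which breaks down monoamines, had 66.4, 94.5 and 74.4, against 36.4, 39 and 32 (log2 change 1.10 ± 0.17, or 0.70 with a pseudocount of 32 and 0.61 averaged over its probe sets). The enzymes that make dopa and noradrenaline gave no call. TH, the rate-limiting hydroxylase, had 161, 196 and 222, against 268, 167 and 258 (-0.24 ± 0.23, adjusted p = 0.65), and DBH had -0.15 ± 0.11 (adjusted p = 0.47), and both overlapped between the groups. Of 22 noradrenergic transcription factors, 2 rose and 1 fell. They were SIX3 (0.53), TLX2 (0.36) and the LIM homeobox factor ISL1 (-0.32, adjusted p = 0.0097). The calls of SIX3 and TLX2 were each lost in the 6 arrays alone, without ATRA replicate 3 and without ATRA + VPA replicate 1, that of SIX3 without ATRA replicate 1 and that of TLX2 averaged over its probe sets.

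Of 28 synaptic vesicle and exocytosis genes, 3 rose and 2 fell, against 4.86% of all genes that rose and 4.63% that fell. The falls became 0 in the 6 arrays alone, without ATRA replicate 3 or without ATRA + VPA replicate 1. Of 42 ion channels and neurotransmitter receptors 1 rose and 0 fell, and 0 to 3 fell under the alternatives. SCN3A, a neuronal sodium channel, had 148, 181 and 170.1 with ATRA + VPA, against 68.3, 77.8 and 80.8 with ATRA (2.18-fold higher, adjusted p = 7.7e-07). RAB3A, a GTPase of synaptic vesicles, had 438, 323 and 363, against 195, 262 and 197 (1.72-fold higher, adjusted p = 0.0002). SYNGR3, a vesicle protein, had 78.6, 59.5 and 61.2, against 32.1, 31.4 and 23.7 (log2 change 1.17 ± 0.20, and 0.69 with a pseudocount of 32). Groups of these 3 genes did not overlap. SYT5, a synaptotagmin, fell (-0.54, adjusted p = 0.043, -0.34 with a pseudocount of 32), a call lost in the 6 arrays alone and without 4 of them singly. SYT1, another synaptotagmin, fell (-0.30, adjusted p = 0.008, or -0.20 and not called without ATRA + VPA replicate 1), and it lost its call also in the 6 arrays alone and without ATRA replicate 3. SYN2, a synapsin, rose (0.37, adjusted p = 0.0489), a call lost without 5 of the 6 arrays singly. Of 39 axon guidance genes, 2 rose and 2 fell. The ligand EFNB2 had 449.6, 464 and 479.7, against 764, 742 and 775 (1.64-fold lower, adjusted p = 2.9e-06). SEMA3F (0.54, or 0.22 and not called averaged over its probe sets) overlapped between the groups. The plexin PLXNA3 (-0.51, or -0.29 with a pseudocount of 32) was dim on every array. Both calls were lost without ATRA replicate 1, that of SEMA3F also without ATRA replicate 3 or ATRA + VPA replicate 1, and that of PLXNA3 also without ATRA + VPA replicate 2 or 3.

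Of 45 matrix and mesenchymal genes, 9 rose and 1 fell (median 0.05), against 4.86% and 4.63% of all genes. LUM, the proteoglycan lumican, had 574, 511 and 492 with ATRA + VPA, against 227, 254 and 248 with ATRA (2.15-fold higher, log2 change 1.11 ± 0.10, adjusted p = 3e-09). LOXL2, which cross-links collagen, had 155, 163 and 195, against 69.2, 79.7 and 63 (2.41-fold higher, adjusted p = 4.3e-07), or 0.43 on the log2 scale averaged over its 3 probe sets. The collagen VI chains COL6A2 (0.80) and COL6A3 (0.78), LOXL1 (0.62), SPARC (0.41) and TWIST1 (0.32) rose with COL5A1. COL6A2 was at 0.46 averaged over its probe sets and lost its call without ATRA replicate 1, LOXL1 without ATRA replicate 2 or ATRA + VPA replicate 2 or 3, and TWIST1 without 4 of the 6 arrays. TIMP1, an inhibitor of matrix proteases, ran against the list, with 1332, 1653 and 1506 in ATRA + VPA cells, against 2683, 2658 and 2946 in ATRA cells (1.85-fold lower, adjusted p = 9.1e-06). The 9 mesenchymal marker genes summed to between 8774 and 9600 with ATRA + VPA and between 7331 and 8226 with ATRA, and 7 of the 9 were above the lower quartile in both groups. Among them LUM and TWIST1 rose, while COL1A2 (22.8 and 19.4) and PRRX1 (17.1 and 17.5) were at the lower quartile. The part of these markers in the other changes was not tested.

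Genes of antigen presentation and interferon response gave 7 rises and 0 falls among 31 (median 0.11), against 4.86% and 4.63% of all genes. HLA-E had 266, 232 and 242 with ATRA + VPA, against 107, 120.0 and 107 with ATRA (2.2-fold higher, adjusted p = 6e-05). HLA-C had 1094, 1114 and 1133, against 602, 573 and 609 (1.87-fold higher, adjusted p = 3.7e-07), and its arrays stood clear of the ATRA arrays. These class I molecules show peptides to T cells, and as near-identical copies their probes may read one another. OAS1, which senses double-stranded RNA (0.86), IFI6 (0.57), ISG15 (0.53) and IFIT1 (0.84, or 0.43 with a pseudocount of 32) rose as well. HLA-B rose (0.46, adjusted p = 0.024), but not in the 6 arrays alone, nor without ATRA replicate 3 or ATRA + VPA replicate 1 or 2. ISG15 lost its call with a pseudocount of 32 (0.28) and without 4 of the 6 arrays. Lysosome and autophagy genes gave 8 rises and 1 fall among 27 (median 0.04), against the same shares of all genes. The rises became 3 in the 6 arrays alone, 3 without ATRA + VPA replicate 1, 4 without ATRA replicate 1 and 5 without ATRA replicate 3. NPC2, which hands cholesterol out of lysosomes, had 671, 620.1 and 572, against 339, 362 and 353 (1.76-fold higher, adjusted p = 5.7e-06). The autophagy gene WIPI1 had 148, 164 and 176, against 97.2, 92.3 and 85.6 (1.76-fold higher, adjusted p = 0.0015). The cathepsins CTSH (0.54), CTSL (0.45) and CTSF (0.57) and the hydrolases GLA (0.42) and GUSB (0.28) rose, and the autophagy receptor SQSTM1 fell (-0.47, adjusted p = 0.0034). TFEB, a transcription factor of lysosomal genes, had 0.54, or 0.33 with a pseudocount of 32 and 0.31 averaged over its probe sets, and lost its call in the 6 arrays alone and without ATRA replicate 3 or ATRA + VPA replicate 1. CTSF, CTSL, GLA and GUSB lost theirs in the 6 arrays alone and without replicate 1 of either group, CTSL and GUSB also without ATRA replicate 3, and GLA also without replicate 2 of either group.

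Wnt readouts split around LGR5, with 6 rises and 1 fall among 17 (median 0.02), and the rises became 3 without replicate 1 of either group. Of all genes, 4.86% rose and 4.63% fell. DKK3, a secreted relative of Wnt antagonists, had 522, 451 and 412 with ATRA + VPA, against 184, 208 and 189 with ATRA (2.37-fold higher, adjusted p = 1.4e-09), or 0.60 on the log2 scale averaged over its probe sets. FZD2, a Wnt receptor, had 322, 286 and 296, against 131, 157 and 146 (2.08-fold higher, adjusted p = 9.8e-06). FZD1 (0.41, or 0.24 and not called averaged over its probe sets), the antagonist SFRP1 (0.49), TCF7L2 (0.38, or 0.22 without ATRA + VPA replicate 1) and LEF1 (0.60, or 0.33 with a pseudocount of 32 and 0.23 averaged over its probe sets) were the other rises. LEF1 and TCF7L2 lost their calls without replicate 1 of either group, TCF7L2 also without ATRA replicate 3, and FZD1 without 5 of the 6 arrays. The list holds receptors and antagonists beside targets. Of 10 metallothioneins, 2 rose. MT2A had 536, 409.9 and 372, against 220.2, 311 and 207 (1.79-fold higher), and MT1X had a log2 change of 0.81. Metallothionein copies are near-identical, so which of them changed is uncertain.

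Chromatin genes gave calls in both directions. Of 23 histone deacetylases, sirtuins and partners, 1 rose and 3 fell, against 4.86% of all genes that rose and 4.63% that fell, and the falls became 1 without ATRA replicate 3, without ATRA + VPA replicate 2 or without ATRA + VPA replicate 3. HDAC1, a direct target of VPA, had 1269.7, 1219 and 1211 with ATRA + VPA, against 979, 937 and 978 with ATRA (1.28-fold higher, adjusted p = 0.029). Its groups did not overlap, but no fit with 1 of the 6 arrays left out kept the call. HDAC9 had 242, 215 and 197, against 207, 215 and 192 (0.09 ± 0.11, adjusted p = 0.75), with overlap. SIRT1, the NAD-dependent deacetylase (-0.40, adjusted p = 0.015), and the complex members RCOR1 (-0.35) and SAP30 (-0.25) fell. SIRT1 lost its call without ATRA replicate 3 or ATRA + VPA replicate 2 or 3, and SAP30 whichever 1 of the 6 arrays was left out. Of 18 acetyltransferases and acetyl readers, CREBBP fell (-0.33, adjusted p = 0.029, or -0.20 averaged over its probe sets), a call lost without 5 of the 6 arrays singly, and 0 rose. Of 59 histone genes, 4 rose and 6 fell, and the rises became 2 without replicate 1 or 2 of either group or in the 6 arrays alone. H2BC12 had 1257, 1554 and 1677, against 2737, 2379.5 and 2783 (1.77-fold lower, adjusted p = 7.7e-07), and H2BC21 had 202, 232 and 208, against 382, 358 and 400.0 (1.77-fold lower). H4C3, a replication-dependent H4 gene, rose (0.65 ± 0.12), and H2AC18 fell (-0.66, or -0.38 averaged over its probe sets, and not called in the 6 arrays alone or without replicate 1 of either group or ATRA replicate 3). Histone copies are near-identical too, so single histone genes are uncertain.

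Of 43 genes reported to rise with deacetylase inhibitors, 10 rose, 3 fell and 30 did not pass (median 0.10). The shares of all genes were 4.86% higher and 4.63% lower. CXADR, the coxsackievirus and adenovirus receptor, had 154, 136 and 140.3 with ATRA + VPA, against 71.9, 91.9 and 94.8 with ATRA (1.67-fold higher, log2 change 0.74 ± 0.14, adjusted p = 0.00071). CLU, the chaperone clusterin, had 1403, 1697 and 1676, against 1314, 1056 and 1267 (1.31-fold higher, adjusted p = 0.0051), a call lost in the 6 arrays alone and without ATRA replicate 2. SAT1, which acetylates polyamines (0.49, or 0.31 averaged over its probe sets), BATF3 (0.64, or 0.38 with a pseudocount of 32) and CRIP1 (0.41) rose, beside SCN3A, SYNGR3, RAB3A and the metallothioneins given above. TUBB3, ALDH1A3 and RHOB (-0.41) ran against the list.

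Of 18 feedback inhibitors of ERK signalling, 6 fell, 0 rose and 12 did not pass (median -0.10). The shares of all genes were 4.63% lower and 4.86% higher. SPRY2, a Sprouty protein, had 459.5, 495 and 597 with ATRA + VPA, against 847, 800.3 and 924 with ATRA (1.66-fold lower, adjusted p = 0.00063). DUSP10, a phosphatase of stress kinases, had 316, 315 and 267, against 484, 439 and 529.5 (1.62-fold lower, adjusted p = 0.0001). DUSP4, a nuclear ERK phosphatase, had 524, 439 and 467, against 683, 635 and 669 (1.39-fold lower, adjusted p = 0.00093). Combination arrays of these genes were all below the ATRA arrays. SPRED2 (-0.44, or -0.23 and not called averaged over its probe sets), SPRY4 (-0.29, or -0.15 averaged over its probe sets, lost whichever 1 of the 6 arrays was left out) and DUSP5 (-0.84, or -0.52 with a pseudocount of 32 and not called in the 6 arrays alone) fell too. Immediate early genes gave 2 falls among 22, ARC (-0.71, or -0.45 with a pseudocount of 32) and EGR3 (-0.52, or -0.25). Neither was called in the 6 arrays alone, nor ARC without ATRA + VPA replicate 3, nor EGR3 without ATRA replicate 2. The integrated stress response gave 6 falls and 2 rises among 31, with 3 falls in the 6 arrays alone and 12 with array weights. Of all 11940 genes, 340 fell in the 6 arrays alone and 1362 with array weights. SLC7A5 (-0.67) and SLC7A11 (-0.63, not called in the 6 arrays alone), which import amino acids, and the factor CEBPG (-0.56) fell. XBP1 (-0.47, overlapping between the groups), DDIT4 (-0.45) and HERPUD1 (-0.33) fell too, but each lost its call without at least 1 array, DDIT4 without ATRA replicate 2, HERPUD1 without replicate 1 of either group and XBP1 without 4 of the 6 (-0.25 without ATRA + VPA replicate 1). PHGDH of serine synthesis rose (0.37), a call lost without ATRA replicate 3 or ATRA + VPA replicate 1. GDF15, a stress-induced secreted factor, ran against them with 195, 172 and 234 in ATRA + VPA cells, against 91.6, 76.9 and 86.7 in ATRA cells (2.33-fold higher, adjusted p = 5.1e-07), or 0.60 on the log2 scale averaged over its 2 probe sets.

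Of 27 apoptosis genes, 2 rose and 2 fell, against 4.86% of all genes that rose and 4.63% that fell. TNFRSF10B, the death receptor DR5, had 106, 96.3 and 68.1 with ATRA + VPA, against 45.9, 45.4 and 46.7 with ATRA (1.91-fold higher, adjusted p = 0.00077), or 0.33 on the log2 scale averaged over its 3 probe sets. DIABLO, which relieves caspases of their inhibitors, had 1608, 1753 and 1689, against 2462, 2641 and 2445 (1.49-fold lower, adjusted p = 9e-06). The caspase CASP6 rose (0.42, lost without ATRA + VPA replicate 1) and the death agonist BID fell (-0.43). The respiratory chain gave 1 fall among 32 (NDUFA9, -0.26, lost without 4 of the 6 arrays singly). BMP and TGF-beta readouts gave 1 rise among 23 (SMAD6, 0.48, or 0.18 and not called averaged over its 4 probe sets). Notch readouts gave no call in limma among 14. Of these, 3 had an unadjusted p under 0.05, as had 2519 of all 11940 genes. Under the alternatives 0 to 1 Notch readouts were called higher and 0 to 2 lower. Markers of other cell types gave 1 rise among 12 Schwann and glial genes (SLC1A3, 0.73, or 0.46 with a pseudocount of 32), 1 fall among 15 epithelial genes (KRT19, -0.72) and 1 rise among 12 haematopoietic genes (CORO1A, 0.49). The last 2 calls were lost without 4 and 3 of the 6 arrays singly.

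Whether VPA acted differently with ATRA present was tested as the VPA change with ATRA minus the VPA change without ATRA (VPA against DMSO), all at 24 h. The difference was called for 88 genes, 0.737% of those tested, 9 above 0 and 79 below 0. The median over all genes was -0.07, so that the VPA change was on the whole slightly lower with ATRA. Both numbers depend on DMSO replicate 1, the array that stands apart. Without it 56 genes were called, 11 above and 45 below 0, and the median was -0.01. A fit of the 24 h arrays alone called 18. VPA alone changed 1451 genes against DMSO, 12.2% of those tested, on arrays not shared with the comparison made beside ATRA. Sterol and fatty acid genes fell there too, 9 of 24 lower and 0 higher (median -0.23), against 297 of 11940 genes lower. Their difference between the 2 VPA changes was called for 1 member, below 0, with a list median of -0.31, or -0.17 without DMSO replicate 1.

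PTGIR rose with VPA beside ATRA and had no call without it. It had 319, 349 and 487 with ATRA + VPA, 132, 129.5 and 91.5 with ATRA, 27, 29.4 and 35.5 with VPA and 20.9, 31.4 and 32.8 with DMSO (difference 1.57 ± 0.29, SE, limma adjusted p = 0.0029). The VPA and DMSO arrays of PTGIR overlapped and were dim, near the lower quartile of the arrays. The size of its VPA change without ATRA, and of this difference, is therefore uncertain. CALCB averaged 577 with both agents, 117 with ATRA, 71.7 with VPA and 28 with DMSO, so that it rose with each agent alone, and the VPA change was larger by 0.96 ± 0.16 beside ATRA (adjusted p = 0.00075). Its DMSO mean lay near the lower quartile of the arrays, so that the size of its VPA change without ATRA, and of this difference, is uncertain. PPARG, a fatty acid receptor of the nuclear receptor family, had 85, 92.1 and 73.3 with both agents and 26.8, 33.8 and 36.9 with ATRA, against 21.6, 20.6 and 17.7 with VPA and 20.2, 19.7 and 21.4 with DMSO (difference 1.38, or 0.85 with a pseudocount of 32). Its VPA and DMSO arrays lay at or under the lower quartile of the arrays, where a level cannot be told from background, so that any VPA change without ATRA, and with it the size of this difference, was not measured. GDF15 (1.04, or 0.59 averaged over its probe sets) and the cathepsin CTSV (0.66) completed the 5 largest positive differences. CTSV lost its call in a fit of the 24 h arrays alone and without 6 arrays singly.

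GAL showed the reverse pattern. Its VPA arrays read 542, 573 and 519 and its DMSO arrays 448, 533 and 577, which overlapped, while beside ATRA it fell, as given above (difference -1.76 ± 0.11, adjusted p = 2e-11). AQP3, a channel for water and glycerol, averaged 214 with both agents, 407 with ATRA, 79.4 with VPA and 32.4 with DMSO. It rose with VPA over DMSO and fell with ATRA + VPA against ATRA (difference -2.20 ± 0.21, adjusted p = 1.2e-07, and -0.85 averaged over its probe sets). The receptor phosphatase PTPRK also rose with VPA over DMSO and fell with ATRA + VPA against ATRA, but its mean with both agents was under that with VPA (49.3 with both, 98.3 with ATRA, 62.9 with VPA and 39.4 with DMSO, difference -1.66, or -1.09 with a pseudocount of 32). CRABP2 and the immediate early factor EGR1 rose with VPA alone, CRABP2 averaging 836 with VPA and 286 with DMSO, and EGR1 1439.5 and 467. Beside ATRA, VPA gave no call for either (-0.16 and 0.22), with ATRA means of 4586 and 1590.2 (differences -1.78 and -1.41). TOX (-1.27, or -0.66 averaged over its probe sets), PRSS12 (-1.30), RND3 (-1.03), MAFF (-1.07) and PPP1R13B (-0.77), among the largest falls beside ATRA, also had differences below 0. These genes were chosen for their fall beside ATRA, which is part of the difference, so that a value below 0 is favoured by the choice. Without ATRA their VPA changes were -0.26, -0.18, -0.21, 0.03 and -0.49, of which the last passed. CRABP2, PTGIR, PRSS12, TOX and GDF15 lost this call when the 24 h arrays were fitted alone. MAFF lost it also without DMSO replicate 1 and without 5 other arrays singly, and PPP1R13B without 8 arrays singly.

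**Figure D3:**
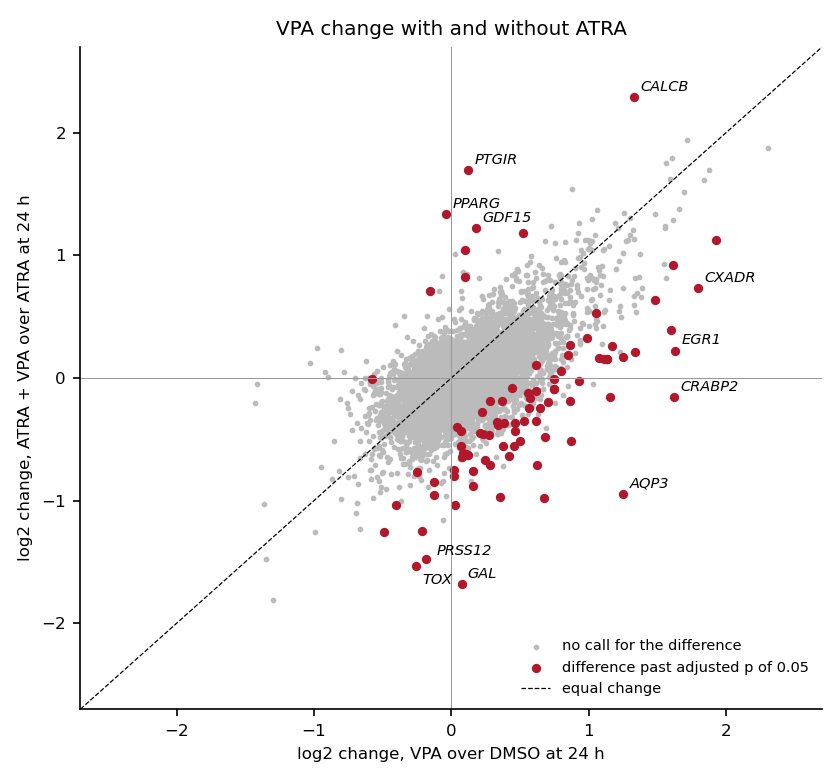
Each point is a gene, with its log2 change for VPA over DMSO on the x axis and for ATRA + VPA over ATRA on the y axis, both at 24 h, and a dashed line at equal change. Red points are the 88 genes whose changes differ at an adjusted p under 0.05; PTGIR and PPARG lie near 0 on the x axis and above 1 on the y axis, and AQP3 and CRABP2 lie right of 1 and below 0.

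**Figure D4:**
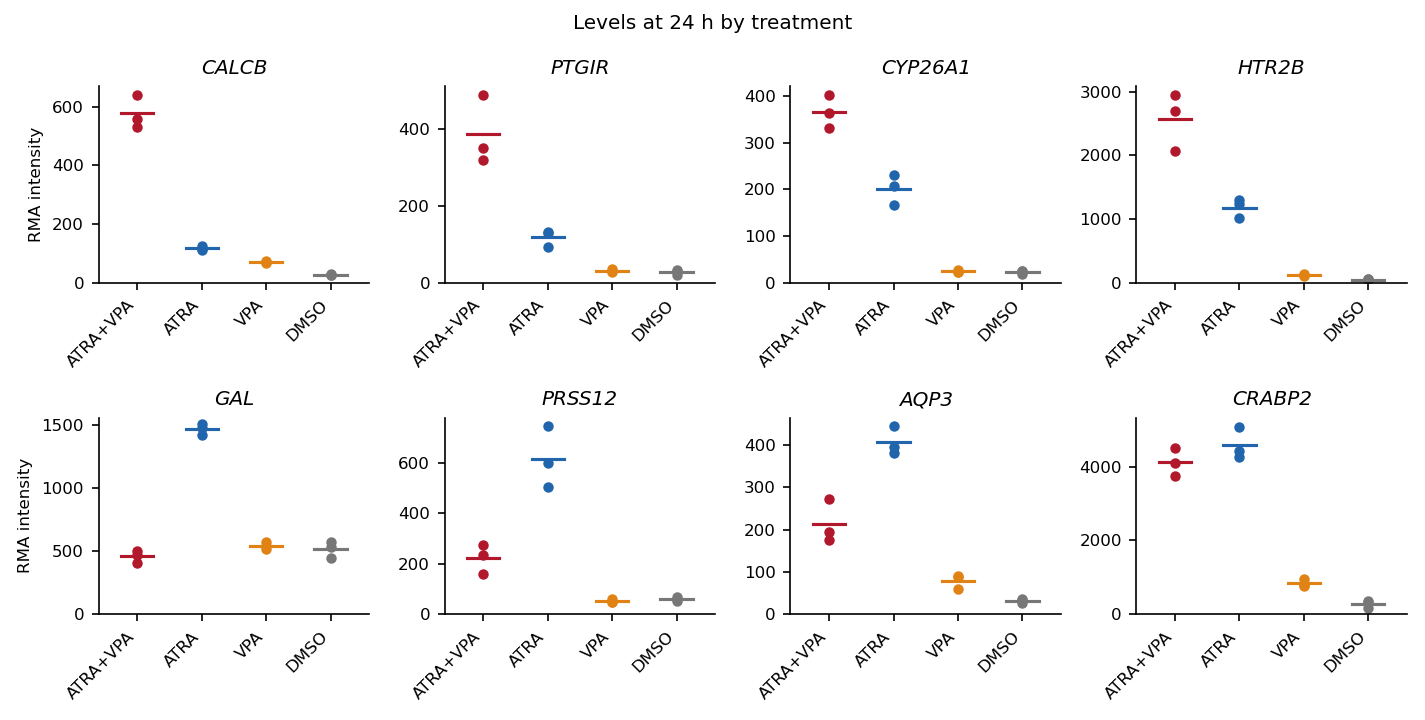
Intensity of 8 genes at 24 h in each of 3 arrays per treatment, with a bar at the mean. HTR2B and CYP26A1 stand higher with ATRA + VPA than with ATRA, GAL, PRSS12 and AQP3 stand lower, and the CRABP2 arrays of both groups overlap.

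The comparison made at 6 h called 1429 genes, 851 higher (7.13%) and 578 lower (4.84%), on arrays not used at 24 h. Of the genes higher at 24 h, 253 were also higher at 6 h (43.6% of the 24 h list and 29.7% of the 6 h list), and of those lower, 149 (26.9% and 25.8%). The change itself differed between 24 h and 6 h in 488 genes, 4.09% of those tested, 178 above (1.49%) and 310 below 0 (2.6%). HTR2B and PRKCH changed sides. HTR2B had a log2 change of -0.98 at 6 h, where it averaged 101 with ATRA + VPA and 198 with ATRA, and of 1.11 at 24 h (difference 2.10, adjusted p = 3.6e-08). PRKCH averaged 205 and 599 at 6 h (log2 change -1.54), against 0.50 at 24 h (difference 2.05, adjusted p = 3.6e-08). Both genes were thus lower with the combination at 6 h and higher at 24 h.

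CALCB had 0.34 at 6 h, PTGIR -0.08 and PPARG -0.09, with no call at 6 h for the last 2 (differences 1.95, 1.78 and 1.43, that of PPARG 0.88 with a pseudocount of 32). PPARG was near the lower quartile at 6 h in both groups, so that the size of its difference is not measured either. GAL had -0.04 at 6 h (adjusted p = 0.84). CXADR had its largest change early, at 2.39 with means of 226 with ATRA + VPA and 42.1 with ATRA, and had 0.74 at 24 h (difference -1.65, adjusted p = 5.8e-06). ZDHHC11, a palmitoyl transferase, and STC2, the hormone stanniocalcin 2, rose at 6 h (2.15 and 1.70) and had 0.16 and -0.06 at 24 h, with adjusted p of 0.76 and 0.92. Averaged over its probe sets, STC2 had a difference of -1.0, against -1.76 at its brightest probe set. PPP1R13B was higher at 6 h (0.48, adjusted p = 0.016) and lower at 24 h. At 72 h it had -0.13 (adjusted p = 0.53).

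At 72 h the comparison called 2478 genes, 20.8% of those tested, 1738 higher (14.6%) and 740 lower (6.2%). The log2 ratio of 3′ to 5′ control probes was 1.31, 1.34 and 1.44 with ATRA + VPA at 72 h. With ATRA at 72 h it was 1.985, 1.84 and 1.64. These ranges did not overlap, so that RNA and labelling quality cannot be told apart from treatment at 72 h. Of the genes higher at 24 h, 374 were higher at 72 h (64.5% of the 24 h list and 21.5% of the 72 h list), and of those lower, 109 (19.7% and 14.7%). Over the 3 times, 184 genes were higher at each and 37 lower at each, with SLITRK5, COL5A1 and IFI30 among the higher and INSIG1 and SLC18A1 among the lower. The change differed between 72 h and 24 h in 979 genes, 8.2% of those tested, 734 above (6.15%) and 245 below 0 (2.05%), a split that became 396 and 398 after a second quantile normalization. The count was 557 in a fit of the arrays compared, 522 without ATRA 24 h replicate 3, 552 without ATRA + VPA 72 h replicate 3, 638 without ATRA 72 h replicate 1 and 644 without ATRA + VPA 24 h replicate 1. With the 3′ to 5′ ratio as a covariate it was 724, of which 631 were among the 979. This test and that against 6 h share the 6 arrays of 24 h. IGFBP3, which binds insulin-like growth factors, did not differ by the test at 24 h (-0.11, adjusted p = 0.81) and averaged 2178 with ATRA + VPA and 572 with ATRA at 72 h (difference 2.03, adjusted p = 3.8e-06). SCGN (-0.47 at 24 h and 1.47 at 72 h) and the tetraspanin TSPAN8 (-0.88 and 0.99) were lower at 24 h and higher at 72 h. GPNMB, a membrane glycoprotein, and FGF13, a modulator of sodium channels, rose at 72 h (1.96 and 2.10) with adjusted p of 0.75 and 0.13 at 24 h. By its mean over all arrays GPNMB was in the lowest 33.3% of genes by intensity. Its difference between 72 h and 24 h ran from 1.47 to 2.03 under the alternatives that held it.

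In the other direction, IFI30 had 1.80 at 24 h and 0.70 at 72 h. C1QL1, a synaptic C1q-related protein, was higher at 24 h (0.73, adjusted p = 0.014, or 0.39 averaged over its probe sets) and lower at 72 h (-0.58, adjusted p = 0.033), a difference of -1.31, or -0.60 averaged over its probe sets. Its call at 24 h was lost without ATRA replicate 3 or ATRA + VPA replicate 2 or 3. SERPINE2, a protease inhibitor, had 0.78 at 24 h and -0.23 at 72 h (difference -1.01, or -0.66 with a pseudocount of 32). NCAPG, a condensin subunit, had 0.25 at 24 h and -0.72 at 72 h (difference -0.97, adjusted p = 0.00093). GAL and LGR5, the largest falls at 24 h, had -0.20 and -0.60 at 72 h, and both differences passed (1.48 and 1.21). Both genes were chosen for their fall at 24 h, which is part of these differences, so that a value above 0 is favoured by the choice.

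The sterol and mitosis lists changed differently at 24 h than at the other times. At 6 h 1 of 24 sterol and fatty acid genes fell (INSIG1), a share near the 4.84% of all genes that fell then. At 24 h 17 fell (4.63% of all genes), and at 72 h 5 did (6.2% of all genes). The list medians were -0.02 at 6 h, -0.64 at 24 h and -0.10 at 72 h. The difference from 6 h was called below 0 for 9 members and above 0 for 0, against 2.6% and 1.49% of all genes. The difference of 72 h from 24 h was above 0 for 10 and below 0 for 0, against 6.15% and 2.05% of all genes. Of 46 G2 and mitosis genes, 9 fell and 0 rose at 6 h, against the same 4.84% and 7.13% of all genes, 15 rose at 24 h (4.86% of all genes), and 13 fell and 0 rose at 72 h (6.2% and 14.6% of all genes). Their medians were -0.11, 0.24 and -0.15. Read against the same shares, the difference from 6 h was above 0 for 17 and below 0 for 0, and that of 72 h from 24 h below 0 for 23 and above 0 for 0. HMMR shows the turn, with -0.51 at 6 h, 0.46 at 24 h and -0.26 at 72 h, and each of these changes passed. In every alternative run at 24 h, the mitosis genes called were higher. At 6 h and 72 h those called were lower in each alternative run for these times. Those runs included a second quantile normalization, but no fit with an array left out or of the compared arrays alone. With the 3′ to 5′ ratio as a covariate 16 mitosis genes rose and 16 sterol genes fell at 24 h.

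**Figure D5:**
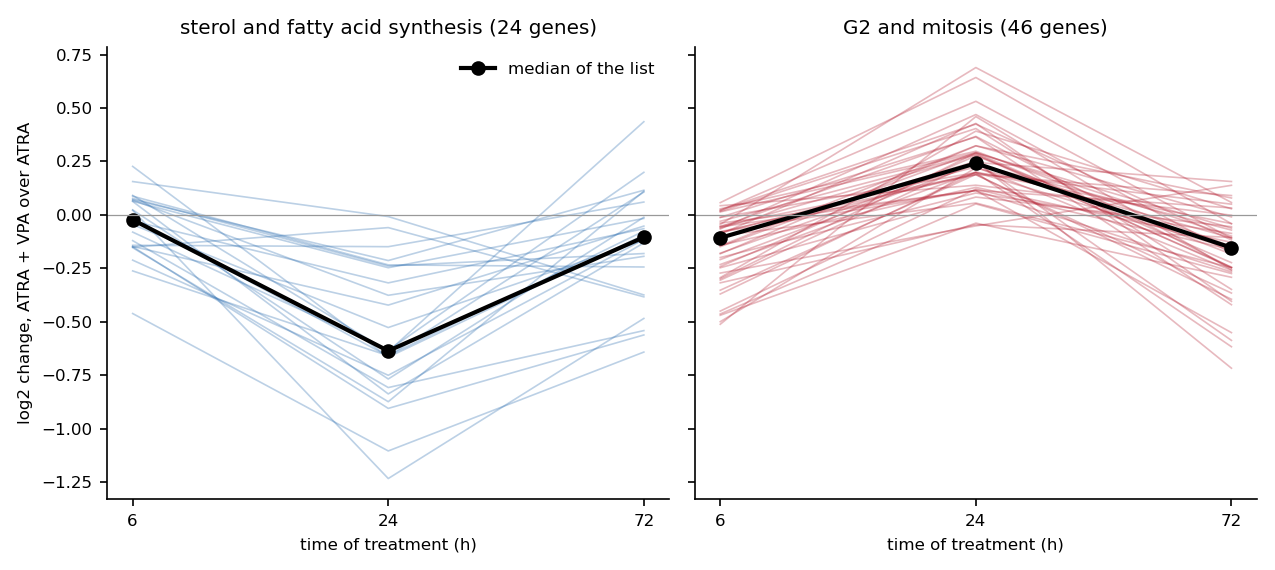
Log2 change of ATRA + VPA over ATRA at 6, 24 and 72 h for each of 24 sterol and fatty acid synthesis genes (left) and 46 G2 and mitosis genes (right), each thin line 1 gene and the black line the list median. The sterol median is -0.02, -0.64 and -0.10 at the 3 times, and the mitosis median is -0.11, 0.24 and -0.15.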

How the data were processed

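The study hybridised RNA of BE(2)-C cells to early-access high-throughput Affymetrix human arrays, 35 of them in 12 groups of treatment and time. The deposited values are probe set intensities on a linear scale from RMA, per the submitters' processing notes, and run from 9.48 to 26442. RMA corrects background and normalizes arrays to each other, so shifts shared by most genes may be hidden. The deposited arrays did not share 1 distribution, with medians from 43.6 (DMSO 24 h replicate 1) to 58.9 (ATRA + VPA 6 h replicate 2). Array-wide shifts can therefore enter the comparisons, and a second quantile normalization was among the alternatives. Of 22930 probe sets, 19415 had 1 gene symbol and were used, 125 had several, 2866 none and 524 were controls. Each of 11940 genes was taken at its probe set of highest mean intensity (4507 genes had more than 1), and 11874 matched the reference by gene ID. Values were analysed as log2(intensity + 1) with limma 3.58.1 in R 4.3.3. All 12 group means were fitted together (23 residual and 5.5 prior degrees of freedom), and p-values were adjusted over 11940 genes by Benjamini-Hochberg with a threshold of 0.05. The fit was tested on simulated data. Standard errors were 0.118 at the median, and the number of arrays limits the precision.

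The named genes were the 12 largest called rises and falls whose arrays did not overlap and whose brighter group averaged at least 64, the 5 largest called differences of each sign in the 3 tests of differences, the 4 members of each list with the largest changes and a set of 20 genes of known role. Further called members of the lists were added after their values were seen. The 34 lists hold 1011 genes, of which 887 were measured. Comparison, members and lists were chosen with earlier results of these data known. Alternatives were the replicate number as a block, the compared arrays alone, no genes of the lowest 33.3% of intensity, the mean of all probe sets, a pseudocount of 32, array weights, a robust prior that follows intensity, a second quantile normalization, the 3′ to 5′ ratio as a covariate and leaving out each array. Chosen after seeing the data were the 6 arrays with a block, the fit without DMSO 24 h replicate 1 and the list counts under each setting. Of the genes of known role, 1 is not reported here.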

Additional observations from a re-analysis of the deposited data

Results flagged for a closer look

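The genes below had called differences between 2 VPA changes, each tested in limma as a difference of log2 changes. They are those with the largest such differences, except for some genes of the test with and without ATRA. There TOX, PRSS12, PPP1R13B, RND3 and MAFF were included as called genes among the largest falls with ATRA + VPA against ATRA. That fall is part of the difference, so that a value below 0 is favoured by the choice. Between the VPA change with ATRA and without it at 24 h, the difference was above 0 for CALCB (0.96), PTGIR (1.57), GDF15 (1.04), PPARG (1.38) and CTSV (0.66). The DMSO mean of CALCB and the arrays of PTGIR without ATRA were near the lower quartile. The arrays of PPARG without ATRA were at or under it. The difference was below 0 for GAL (-1.76), TOX (-1.27), PRSS12 (-1.30), PPP1R13B (-0.77), RND3 (-1.03), MAFF (-1.07), AQP3 (-2.20), CRABP2 (-1.78), PTPRK (-1.66) and EGR1 (-1.41).

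Between the change from adding VPA to ATRA at 24 h and at 6 h, the difference was above 0 for CALCB (1.95), PTGIR (1.78), HTR2B (2.10), PPARG (1.43) and PRKCH (2.05). It was below 0 for GAL (-1.64), PPP1R13B (-1.73), ZDHHC11 (-1.99), STC2 (-1.76) and CXADR (-1.65).

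Between that change at 72 h and at 24 h, the difference was above 0 for IGFBP3 (2.03), SCGN (1.94), TSPAN8 (1.87), GPNMB (1.83) and FGF13 (1.77). It was below 0 for IFI30 (-1.09), C1QL1 (-1.31), SERPINE2 (-1.01), PSG1 (-1.0039) and NCAPG (-0.97).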

How the results depend on the processing

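The comparison of ATRA + VPA with ATRA at 24 h called 1133 genes, and it called 737 in a fit of the 6 arrays alone, 2513 with array weights and 718 to 1457 with 1 array left out, the lowest without ATRA replicate 3 and the highest without DMSO 24 h replicate 1. List counts under these settings are to be read against all 11940 genes under the same setting. In the 6 arrays alone 397 rose and 340 fell, and with array weights 1151 rose and 1362 fell. After a second quantile normalization 736 rose and 486 fell. Without 1 of the 6 arrays 394 to 527 rose and 314 to 480 fell. The test of whether VPA acted differently with ATRA called 88 genes, against 18 in a fit of the arrays compared, 411 with array weights and 55 to 231 with 1 array left out (55 without VPA replicate 2 or ATRA + VPA replicate 2, 56 without DMSO replicate 1, 231 without DMSO replicate 3). The difference between 24 h and 6 h was called in 488 genes, against 1546 with array weights and 370 to 518 with 1 array left out. The difference between 72 h and 24 h was called in 979 genes, against 557 in a fit of the arrays compared, 1668 with array weights and 522 to 1293 with 1 array left out. The other settings named in the methods stayed within 1.5 times these counts, except the 6 arrays with a block, given below. The cause of these moves was not tested, except that a fit of the compared arrays has fewer samples for its spread. No named gene called at 24 h changed direction under the alternatives run. ZDHHC11 and STC2, which were not called at 24 h, changed sign with an array left out: ZDHHC11 ran from -0.0394 (without ATRA replicate 3) to 0.2989 and was -0.0102 without ATRA + VPA replicate 1, and STC2 ran from -0.2808 to 0.1251 (without ATRA + VPA replicate 2) and was 0.079 without ATRA replicate 2. PSG1 lost its difference between 72 h and 24 h averaged over its probe sets (-0.32) and without 5 arrays singly. Low signal limits genes near the lower quartile of the arrays.

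Replicate numbers showed no common pairing of the samples. Deviations of ATRA + VPA and ATRA arrays of the same number from their group means correlated at -0.296, -0.189 and 0.122 across genes. The largest correlation of any pair was 0.348, between ATRA + VPA replicate 1 and ATRA replicate 2. These arrays had the highest 3′ to 5′ ratios of their groups (1.34 and 1.30), and why they deviated together was not tested. With the replicate number as a block the counts were 1127, 78, 490 and 1019 in the order above, and 394 genes were called for ATRA + VPA against ATRA when the 6 arrays alone were fitted with the block. Of 184 named genes called at 24 h, 52 lost the call in the 6 arrays alone and 96 in the 6 arrays with the block. With that block the calls were 13 lower for sterol and fatty acid genes, 2 higher for G2 and mitosis, 3 lower for neuroendocrine peptides, 2 lower for the neuronal cytoskeleton, 1 lower for catecholamine genes, 3 higher for lysosome genes and 0 lower for the integrated stress response. Of all 11940 genes, 247 were higher and 147 lower with it.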
